A study of Homo sapiens with 6 samples.

Results

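The 44 genes described here encode the machinery of autophagy and mitophagy, from the ULK kinase complex to the cargo receptors. They were chosen by gene symbol from a fixed list, with earlier results of these data known. All 44 symbols were found among the 35130 gene names listed for each library. RNA was sequenced from SK-N-BE(2), an established MYCN-amplified neuroblastoma line of human origin, in 2 groups of 3 libraries each. One group was treated with 1 µM NEN for 24 h and the other with the solvent DMSO for 24 h, and the labels name both sets as biological replicates. NEN is given by its abbreviation only. In the neuroblastoma literature the abbreviation stands for the ethanolamine salt of niclosamide, which uncouples mitochondrial respiration, and that identity is background here. Both groups are a single established line grown in dishes, so nothing here speaks for other lines or for tumours.

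Autophagy encloses cytoplasm in a double membrane, the phagophore, which closes into an autophagosome and fuses with lysosomes. The ULK kinase complex starts the process, a class III phosphatidylinositol 3-kinase complex marks the membrane with the lipid PI3P, and ATG9A, ATG2 and the PI3P-binding WIPI proteins supply and organise membrane. Ubiquitin-like conjugation enzymes then attach ATG8 proteins (the LC3 and GABARAP families) to the membrane, where cargo receptors bind them. In mitophagy, the kinase PINK1 accumulates on depolarised mitochondria and activates the ubiquitin ligase parkin (PARK2), which tags the organelle for the same receptors.

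Values are TPM (transcript abundances), a level scaled by transcript length and library total, so levels may be compared between genes. TPM holds no read counts, so sequencing depth is unknown and no counting interval can be given. Between 17294 and 17820 genes lay above 0 in the NEN libraries, against 17285 to 18041 in the DMSO libraries. In bulk RNA, fewer cells expressing a gene and less RNA per cell cannot be told apart. All 9 neuroblastoma markers examined were present, with means over the 6 libraries of 10.9 (TH) to 2756 TPM (CHGA). They summed to 5974 to 6232 TPM in NEN libraries and 4942 to 5817 TPM in DMSO libraries. Of the 9, 6 rose in limma (66.7%, where 13.5% of all genes tested rose), namely PHOX2A, HAND2, ISL1, DBH, TH and MYCN, by 0.28 (HAND2) to 0.82 (TH), and their part in the autophagy results was not tested. The labels give bone marrow as tissue. The 9 blood cell markers summed to 0.283 to 0.957 TPM in NEN libraries and 0.461 to 1.01 TPM in DMSO libraries, and CD3E, MPO, HBB and PPBP were listed at 0 in all 6. Of the stromal, endothelial and epithelial markers THY1 was high (288 TPM in NEN and 366 TPM in DMSO cells on average), and no other of the 10 exceeded 4.47 TPM in any library. mRNAs of mitochondrial DNA took 7.49%, 8.32% and 8.56% of summed TPM in NEN libraries, against 11.6%, 9.57% and 9.53% in DMSO libraries. The part of this share in the differences below was not tested.

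In NEN-treated cells 12 autophagy genes rose and 2 fell, 27.9% and 4.65% of those tested, where 13.5% and 16.5% of all genes did. The share called in either direction, 32.6%, was near the 30.0% of all genes tested. The largest rises were those of GABARAPL1, an ATG8 protein, at 3.11 times its mean DMSO level, PIK3C3, the catalytic subunit of the PI3-kinase complex, at 2.32 times, NBR1, a cargo receptor, at 2.19 times, and WIPI1, which binds PI3P, at 1.96 times. ATG2B, a lipid transfer protein, and ATG16L1, which places the conjugation machinery on the membrane, fell. Each difference is the NEN mean minus the DMSO mean of log2(TPM + 1), a scale on which low genes appear to change less than they do. It is given ± SE with the adjusted p of limma, a linear model fitted across all 12576 genes that average 1 TPM or more, and genes with an adjusted p under 0.05 are called.

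Of the 44 genes, 43 were tested and 14 were called, which is 32.6% of those tested, where 30.0% of all genes tested were called. By direction, 12 rose (27.9%, where 13.5% of all tested genes rose) and 2 fell (4.65%, where 16.5% of all fell). Without NEN replicate 3 or any single DMSO replicate the count that fell was 1, and 8 rose without NEN replicate 1 or 3 or DMSO replicate 2 or 3. The median difference was 0.14 over the 43 genes and -0.025 over all genes tested. The share called is thus near that of all genes, while the calls divided between the directions differently. Because the 44 genes were chosen with earlier results of these data known, that division is a description and not a test. In 18 of the 43 genes the groups did not overlap, 14 with all NEN libraries above all DMSO libraries and 4 below. Over all tested genes 46.8% did not overlap, 21.8% above and 25.0% below. Against the DMSO mean, the median of the 43 genes stood at 0.097, 0.14 and 0.16 in NEN replicates 1 to 3 and at 0.026, -0.0010 and -0.053 in DMSO replicates 1 to 3. Exons of ATG9A and GABARAP overlap those of a further gene on the same strand, and those of WIPI1, ATG2B, ATG16L2, SQSTM1, NBR1, TAX1BP1 and GABARAPL1 among others overlap a gene on the opposite strand (GENCODE release 29), so reads there may be shared. The filter removed PARK2 alone, and the lowest tested group mean was 2.57 TPM (EPG5 in DMSO cells), well over the filter. The plot of the 43 genes beside all genes shows their place in the whole distribution.

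**Figure D1:**
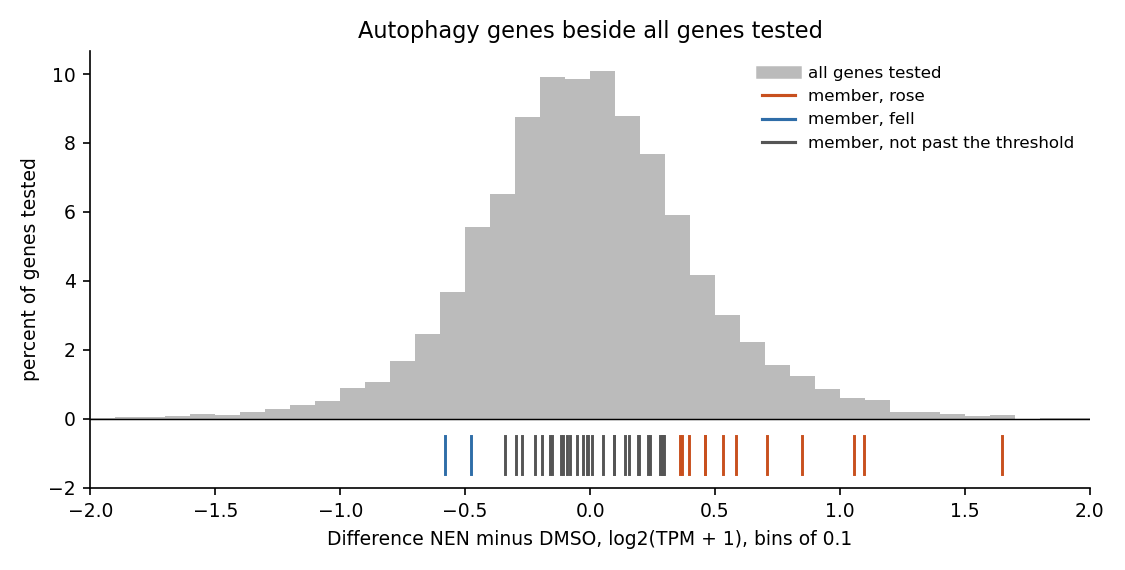
NEN minus DMSO differences in log2(TPM + 1) for all 12576 genes tested (grey bars, percent of genes in bins of 0.1, with 20 genes below -2 and 11 above 2 outside the axis) and for the 43 autophagy genes (ticks under the axis, coloured by call). The 2 genes that fell lie at -0.58 and -0.47, and the 12 that rose lie between 0.36 and 1.65.

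In the ULK complex, which receives the signals of mTORC1 and AMPK, 1 of 4 genes rose. That share was 25.0%, where 30.0% of all genes tested were called and 13.5% rose. ULK1, the initiating kinase, had 11.5, 11.9 and 11.4 TPM in NEN libraries, against 8.44, 8.27 and 9.83 TPM in DMSO libraries. The groups did not overlap, and the difference was 0.36 ± 0.11 (adjusted p = 0.0432). That call was close to the threshold and was lost without NEN replicate 1 (0.36), 2 (0.34) or 3 (0.37) and without DMSO replicate 1 (0.33) or 2 (0.32). It was also lost with no filter (adjusted p = 0.0711), after quantile normalization (0.0645) and after correction for transcript length and GC content, where the difference was 0.14 (adjusted p = 0.324). ATG13, a scaffold subunit and the highest of the 4, averaged 27.9 ± 1.9 TPM in NEN cells and 26.2 ± 3.1 TPM in DMSO cells (SD, n = 3 each, adjusted p = 0.537). The paralogous kinase ULK2 averaged 4.01 ± 1.00 and 4.07 ± 1.17 TPM in NEN and DMSO cells, and the scaffold RB1CC1 23.4 ± 3.3 and 20.9 ± 3.0 TPM. Neither difference passed the test.

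The PI3-kinase complex showed unequal changes among its subunits, with 2 of 6 genes called, both as rises. That share, 33.3%, was near the 30.0% called among all genes tested, where 13.5% rose. PIK3C3, the lipid kinase itself, had 8.44, 8.09 and 7.23 TPM in NEN libraries, against 2.20, 3.22 and 4.81 TPM in DMSO libraries. Every NEN library lay above every DMSO library, and DMSO replicate 3 was the highest of its group. The difference was 1.06 ± 0.22 (adjusted p = 0.0118), and it was 0.63 with a pseudocount of 5. PIK3R4, the regulatory kinase-like subunit that binds PIK3C3, pointed the other way with 13.47, 10.4 and 10.5 TPM in NEN libraries, against 16.6, 14.01 and 13.51 TPM in DMSO libraries (-0.34 ± 0.14, adjusted p = 0.103). The PIK3R4 groups narrowly did not overlap. The ratio of PIK3C3 to PIK3R4 TPM was therefore 0.627, 0.779 and 0.686 in NEN libraries, against 0.133, 0.230 and 0.356 in DMSO libraries.

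BECN1, the scaffold shared by all forms of the complex, was the highest of the 6, with 42.5, 44.9 and 43.97 TPM in NEN libraries, against 44.8, 46.98 and 48.6 TPM in DMSO libraries. The groups overlapped and the difference did not pass the test (-0.093 ± 0.067, adjusted p = 0.333). UVRAG and ATG14 take the same place on BECN1 in different complexes, UVRAG in the endosomal form and ATG14 in the form that acts on the phagophore. UVRAG had 21.2, 17.1 and 18.3 TPM in NEN libraries, against 15.4, 13.6 and 14.02 TPM in DMSO libraries, a rise of 0.37 ± 0.11 (adjusted p = 0.0413). The UVRAG call was lost without NEN replicate 1 (0.28), 2 (0.43) or 3 (0.39), without DMSO replicate 2 (0.34) or 3 (0.35), and with no filter (adjusted p = 0.0755). ATG14 had 7.06, 6.10 and 6.07 TPM in NEN libraries, against 4.99, 5.81 and 4.43 TPM in DMSO libraries, without overlap (0.29 ± 0.14, adjusted p = 0.164). The ratio of UVRAG to ATG14 TPM was 2.80 to 3.01 in NEN libraries and 2.34 to 3.16 in DMSO libraries, so the ranges overlapped. AMBRA1, which regulates BECN1, averaged 9.23 ± 1.5 TPM in NEN cells and 9.17 ± 1.3 TPM in DMSO cells.

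Among the 7 genes for membrane supply and PI3P binding, 2 rose and 1 fell (28.6% and 14.3%, where 13.5% and 16.5% of all genes tested did). ATG9A, a lipid scramblase carried on vesicles that seed the phagophore, was the highest of them, with 125, 124 and 126 TPM in NEN libraries, against 95.5, 96.1 and 93.2 TPM in DMSO libraries. The groups lay far apart relative to their spread, and the rise was 0.40 ± 0.05 (adjusted p = 0.00179). WIPI1 had 9.90, 11.8 and 15.4 TPM in NEN libraries, against 6.45, 6.53 and 5.99 TPM in DMSO libraries, a rise of 0.85 ± 0.16 (adjusted p = 0.00808). NEN replicate 3 was the highest, and without it the difference was 0.69 and still called. WIPI2, the paralogue that recruits ATG16L1 to the phagophore, averaged 54.0 ± 0.9 TPM in NEN cells and 52.1 ± 2.4 TPM in DMSO cells (adjusted p = 0.578). The ratio of WIPI1 to WIPI2 TPM was 0.180, 0.220 and 0.289 in NEN libraries, against 0.120, 0.123 and 0.121 in DMSO libraries.

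ATG2B had 8.18, 8.82 and 5.90 TPM in NEN libraries, against 12.1, 11.1 and 12.1 TPM in DMSO libraries, a fall of 0.58 ± 0.15 (adjusted p = 0.0270). All NEN libraries lay below all DMSO libraries. That call was lost without NEN replicate 1 (-0.63) or 3 (-0.43), without DMSO replicate 1 (-0.56), 2 (-0.62) or 3 (-0.56), and with no filter (adjusted p = 0.0573). Its paralogue ATG2A averaged 4.88 ± 0.71 TPM in NEN cells and 5.19 ± 0.23 TPM in DMSO cells (adjusted p = 0.707). VMP1, a scramblase of the endoplasmic reticulum, averaged 63.0 ± 7.4 and 76.7 ± 13.9 TPM in NEN and DMSO cells (adjusted p = 0.194). WDR45, a further PI3P-binding protein, averaged 26.9 ± 2.2 and 22.7 ± 0.1 TPM without overlap (adjusted p = 0.0833). In GENCODE release 29 WDR45 shares up to 539 exon bases with PRAF2 on the same strand, and PRAF2 rose by 0.57 ± 0.07 (adjusted p = 0.00167), so reads of the 2 genes may have been divided between them.

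**Figure D2:**
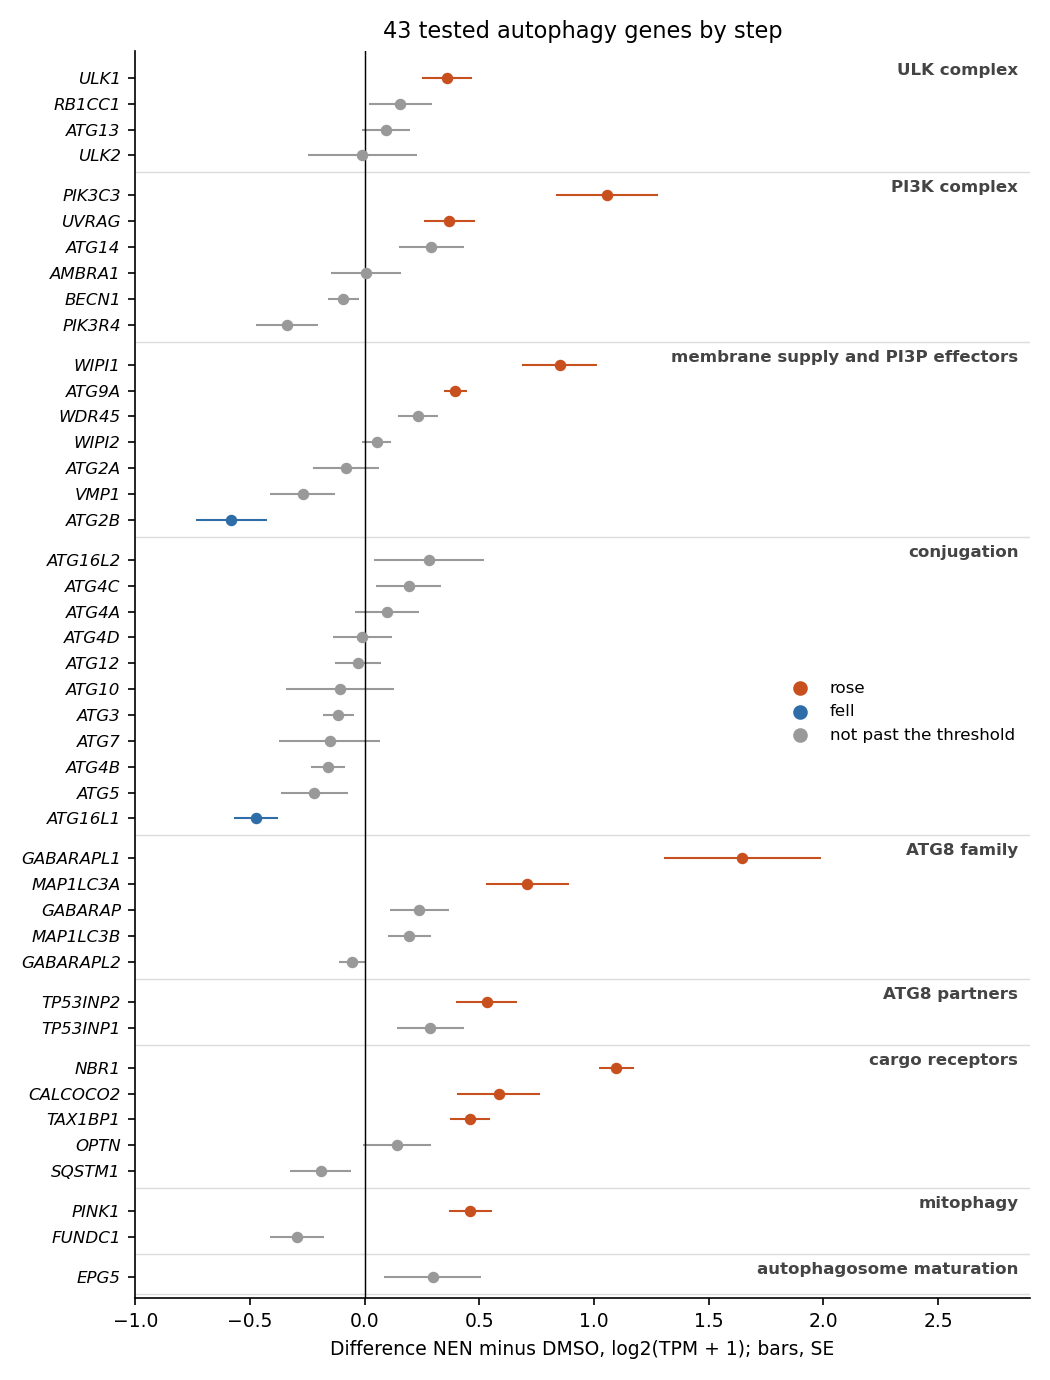
NEN minus DMSO differences in log2(TPM + 1) for the 43 tested autophagy genes, grouped by step (points, limma estimates from 3 libraries a group, bars, SE). The conjugation genes lie between -0.47 and 0.28, while the ATG8 family reaches 1.65 and the cargo receptors 1.10.

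In the conjugation machinery 1 of 11 genes was called (9.09%, where 30.0% of all genes tested were called), and the median difference of the 11 was -0.11. ATG16L1 had 20.04, 20.03 and 22.4 TPM in NEN libraries, against 32.0, 27.0 and 29.1 TPM in DMSO libraries. The groups did not overlap, and the fall was 0.47 ± 0.10 (adjusted p = 0.00952). Its paralogue ATG16L2 averaged 9.23 ± 3.86 TPM in NEN cells and 7.08 ± 0.33 TPM in DMSO cells, where NEN replicate 3 alone was high, at 13.7 TPM (adjusted p = 0.415). ATG7, the activating enzyme of both conjugation reactions, averaged 15.3 ± 3.6 and 17.1 ± 3.9 TPM in NEN and DMSO cells. ATG3, which transfers ATG8 proteins to lipid, averaged 54.3 ± 2.5 and 58.9 ± 2.3 TPM, with all NEN libraries below all DMSO libraries. ATG10, which joins ATG12 to ATG5, averaged 8.14 ± 2.94 and 8.63 ± 1.56 TPM. ATG5 and ATG12 themselves averaged 7.001 ± 0.26 and 36.7 ± 3.0 TPM in NEN cells, against 8.40 ± 1.48 and 37.4 ± 3.8 TPM in DMSO cells. None of these 5 passed the test, with adjusted p between 0.237 (ATG3) and 0.865 (ATG12) in limma, none at an unadjusted p under 0.05.

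ATG4 proteases prime ATG8 proteins and remove them from membranes, and 4 genes encode them. ATG4B, the main one in human cells, had 116, 111 and 126 TPM in NEN libraries, against 141, 128 and 126 TPM in DMSO libraries (-0.16 ± 0.07, adjusted p = 0.142). The highest NEN library lay just above the lowest DMSO library. After length and GC correction the ATG4B difference was -0.31 and passed (adjusted p = 0.0230), and after quantile normalization it was -0.079 (adjusted p = 0.463). ATG4D averaged 47.3 ± 3.0 and 48.1 ± 8.1 TPM in NEN and DMSO cells, ATG4C 9.30 ± 0.11 and 8.10 ± 1.51 TPM, and ATG4A 6.86 ± 0.77 and 6.35 ± 0.74 TPM. The 4 genes together summed to 182, 176 and 186 TPM in NEN libraries, against 193, 198 and 192 TPM in DMSO libraries, so the 2 ranges did not touch. This sum was chosen after values were seen and was not recomputed under other scalings, and none of the 4 genes was called. ATG4B made up 62.9% to 68.0% of the NEN sum and 64.8% to 73.0% of the DMSO sum.

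In the ATG8 family, 2 of 5 genes rose, both of them minor members by level. That share was 40.0%, where 30.0% of all genes tested were called and 13.5% rose. GABARAPL1, a protein of the GABARAP branch, had 29.3, 25.4 and 21.1 TPM in NEN libraries, against 4.57, 5.94 and 13.9 TPM in DMSO libraries. No NEN library overlapped the DMSO group, but DMSO replicate 3 stood at over 2 times the other DMSO libraries. The rise was 1.65 ± 0.34 (adjusted p = 0.0112), and it was 2.07 without DMSO replicate 3. MAP1LC3A, of the LC3 branch, had 12.3, 19.2 and 12.5 TPM in NEN libraries, against 8.56, 9.203 and 7.53 TPM in DMSO libraries, a rise of 0.71 ± 0.18 (adjusted p = 0.0246). MAP1LC3A no longer passed when DMSO replicate 3 was left out (0.64, adjusted p = 0.0732), with no filter (0.0563) and after length and GC correction (0.47, adjusted p = 0.0916).

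The more abundant ATG8 genes did not pass. GABARAP, the highest of all 44 genes, had 375, 364 and 438 TPM in NEN libraries, against 404, 293 and 308 TPM in DMSO libraries (0.24 ± 0.13, adjusted p = 0.206). DMSO replicate 1 lay among the NEN libraries, and without it GABARAP was called (0.38, adjusted p = 0.0194), while its difference was 0.16 without NEN replicate 3 and 0.15 without DMSO replicate 2. MAP1LC3B, the usual protein marker of autophagosomes, had 37.9, 34.7 and 34.8 TPM in NEN libraries, against 35.1, 29.1 and 29.5 TPM in DMSO libraries (0.20 ± 0.10, adjusted p = 0.161), and was likewise called without DMSO replicate 1 (0.28, adjusted p = 0.0455). GABARAPL2 averaged 93.9 ± 3.1 TPM in NEN cells and 97.6 ± 3.5 TPM in DMSO cells (adjusted p = 0.517). The near-identical copies MAP1LC3B2 and GABARAPL3 could take reads of MAP1LC3B and GABARAPL1. MAP1LC3B2 was listed at no more than 0.688 TPM in any library and GABARAPL3 at 0 in all 6.

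Summed over the 5 genes, the ATG8 level was 552, 537 and 598 TPM in NEN libraries, against 553, 431 and 457 TPM in DMSO libraries, and the groups overlapped through DMSO replicate 1. GABARAPL1 made up 5.31%, 4.74% and 3.52% of the sum in NEN libraries, against 0.827%, 1.38% and 3.03% in DMSO libraries. GABARAPL2 made up 15.3% to 17.6% in NEN libraries and 18.2% to 21.8% in DMSO libraries, and both of these shares separated the groups. The share of GABARAP, 67.9% to 73.3% in NEN and 67.4% to 73.0% in DMSO libraries, did not, so GABARAP was the main ATG8 transcript in both groups.

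TP53INP1 and TP53INP2 bind ATG8 proteins, and TP53INP2 brings them from the nucleus to the cytoplasm. TP53INP2 had 15.2, 13.0 and 14.4 TPM in NEN libraries, against 11.1, 8.14 and 9.43 TPM in DMSO libraries, a rise of 0.53 ± 0.13 (adjusted p = 0.0225). The groups did not overlap, and the call was lost without NEN replicate 1 (0.48) or 3 (0.52) and without DMSO replicate 2 (0.43) or 3 (0.53). TP53INP1 had 3.58, 3.49 and 3.40 TPM in NEN libraries, against 2.89, 2.71 and 2.45 TPM in DMSO libraries, also without overlap (0.29 ± 0.15, adjusted p = 0.186).

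The promoters of the autophagy genes were searched for motifs of stress and autophagy factors in the 250 bases before the RefSeq start. RefSeq promoters were found for 36 of the 44 genes, among them 9 of the 12 that rose. The E-box core CACGTG that TFEB and TFE3 bind lies in 2 of the 36 promoters (5.56%), those of ATG3 and ATG14, and in 6.49% of 27305 promoters in all. Its longer palindromic form, which contains that core, lies in none of the 36 and in 0.33% of all. The composite element of ATF4 and CEBP factors, TGATGNAA, lies in none of the 36 and in 3.19% of all, and the forkhead box O element GTAAACA in that of CALCOCO2 and in 2.98% of all. The cyclic AMP response element TGACGTCA, a palindrome searched for after the promoters had been read, lies in those of GABARAPL1 and TP53INP2, 2 of 36 (5.56%), and in 1.77% of all. Both strands were searched. A match describes letters in this window only. Of the 9 risen genes with a promoter, 2 hold TGACGTCA, and the others, among them PIK3C3, WIPI1 and CALCOCO2, lack it. Any part of the motif in the rises was not tested. By ratio of means PIK3C3 (2.32) stood above NBR1 (2.19), while NBR1 had the larger difference in log2(TPM + 1). The 3 promoters below are those of GABARAPL1 and NBR1, the genes with the 2 largest differences, and of TP53INP2, which holds TGACGTCA. They are given 5′ to 3′ on the gene's strand in build GRCh38.p14, at chr12:10212627-10212876 (plus strand), chr17:43170159-43170408 (plus strand) and chr20:34704094-34704343 (plus strand), and end 1 base before the start. Capitals mark TGACGTCA, which begins 30 bases before the start of GABARAPL1 and 61 bases before that of TP53INP2, and NBR1 has none of the motifs.
GABARAPL1: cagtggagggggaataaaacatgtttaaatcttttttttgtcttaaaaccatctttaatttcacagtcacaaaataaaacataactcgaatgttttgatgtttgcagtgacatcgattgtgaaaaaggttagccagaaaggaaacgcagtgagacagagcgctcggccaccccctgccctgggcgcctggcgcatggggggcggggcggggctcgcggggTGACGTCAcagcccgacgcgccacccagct
NBR1: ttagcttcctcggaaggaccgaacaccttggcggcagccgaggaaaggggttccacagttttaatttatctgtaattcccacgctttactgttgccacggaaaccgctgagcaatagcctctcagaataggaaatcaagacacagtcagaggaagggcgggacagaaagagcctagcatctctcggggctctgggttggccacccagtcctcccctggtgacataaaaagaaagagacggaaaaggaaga
TP53INP2: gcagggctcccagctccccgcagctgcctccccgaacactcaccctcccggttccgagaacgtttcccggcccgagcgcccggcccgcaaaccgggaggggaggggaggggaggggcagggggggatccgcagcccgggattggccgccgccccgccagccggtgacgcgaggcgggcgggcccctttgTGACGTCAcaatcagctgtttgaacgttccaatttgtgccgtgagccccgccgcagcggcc

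**Figure D3:**
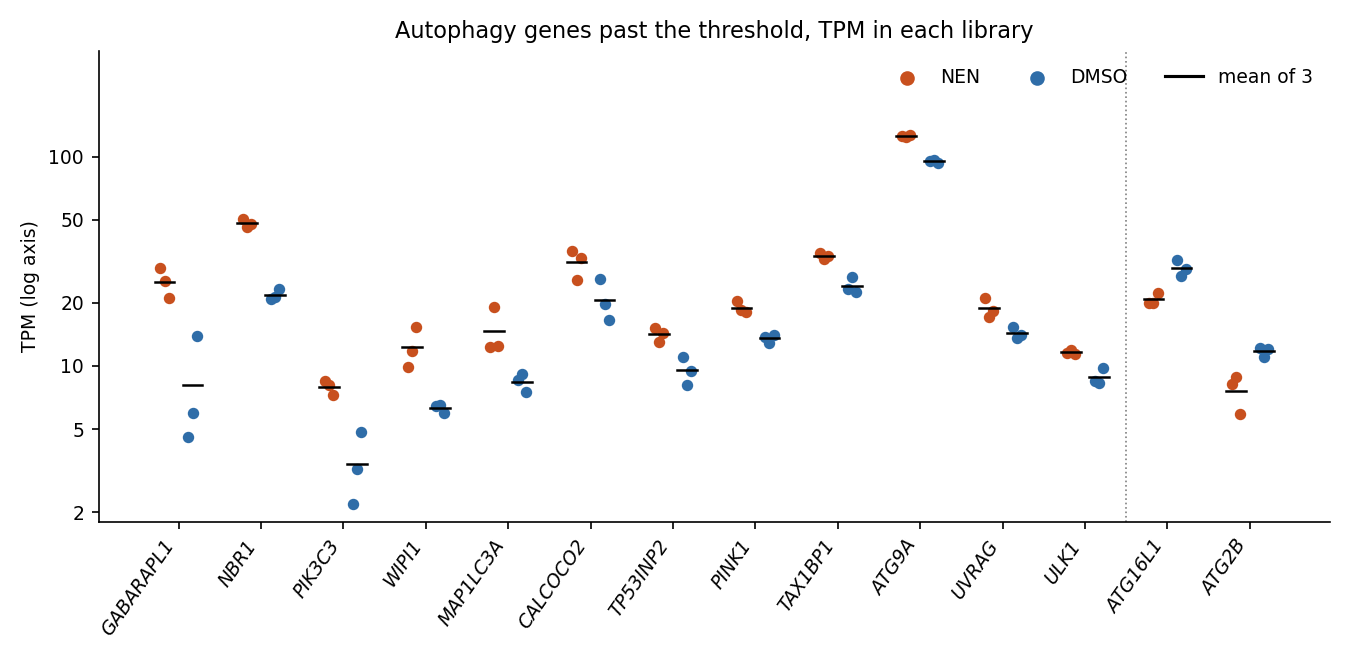
TPM (log axis) of the 14 called autophagy genes in the 3 NEN and 3 DMSO libraries (points, 1 per library, black lines, group means), ordered by difference with the rises left of the dotted line. The groups separate in 13 of the 14, and CALCOCO2, whose lowest NEN value of 25.7 TPM lies under its highest DMSO value of 26.0 TPM, is the exception.

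Cargo receptors link ubiquitin-tagged material to ATG8 proteins, and 3 of 5 rose. That share was 60.0%, where 30.0% of all genes tested were called and 13.5% rose. NBR1 had 50.1, 46.1 and 47.6 TPM in NEN libraries, against 20.9, 21.3 and 23.4 TPM in DMSO libraries. Its rise of 1.10 ± 0.08 (adjusted p = 0.000323) had the smallest p of the 43 genes, and every NEN library stood at about 2 times the DMSO level. TAX1BP1, which works with NBR1 and SQSTM1 on protein aggregates, had 34.5, 32.4 and 33.4 TPM in NEN libraries, against 23.2, 26.6 and 22.5 TPM in DMSO libraries, a rise of 0.46 ± 0.09 (adjusted p = 0.00820). CALCOCO2, also known as NDP52 and one of the receptors of parkin-driven mitophagy, had 35.5, 25.7 and 32.9 TPM in NEN libraries, against 26.0, 19.7 and 16.6 TPM in DMSO libraries, a rise of 0.58 ± 0.18 (adjusted p = 0.0457). The CALCOCO2 groups overlapped, and the call was lost without NEN replicate 1 (0.49) or 3 (0.54), without DMSO replicate 2 (0.56) or 3 (0.44), with no filter (adjusted p = 0.102) and with limma's plain settings (0.0732).

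SQSTM1, or p62, whose protein accumulates when autophagy is blocked, had 54.9, 68.3 and 80.8 TPM in NEN libraries, against 80.9, 73.0 and 76.8 TPM in DMSO libraries. The NEN libraries were widely spread and overlapped the DMSO group (-0.19 ± 0.13, adjusted p = 0.313). The SQSTM1 difference was -0.049 without NEN replicate 1 and -0.32 without NEN replicate 3, and passed in neither. OPTN, a second receptor of parkin-driven mitophagy, averaged 7.13 ± 1.10 TPM in NEN cells and 6.34 ± 0.62 TPM in DMSO cells (adjusted p = 0.506). The sum of the 5 receptors was chosen after values were seen, so the shares below are descriptions that restate the levels above. NBR1 made up 27.7%, 25.7% and 23.5% of the summed TPM of the 5 receptors in NEN libraries, against 13.3%, 14.5% and 16.1% in DMSO libraries. SQSTM1 made up 30.3%, 38.0% and 39.8% in NEN libraries, against 51.4%, 49.5% and 53.0% in DMSO libraries. The sum itself was 181, 180 and 203 TPM in NEN libraries, against 157, 148 and 145 TPM in DMSO libraries, and these 3 measures did not overlap between the groups. The shares of OPTN (mean 3.78% in NEN and 4.23% in DMSO libraries), CALCOCO2 (16.7% and 13.8%) and TAX1BP1 (17.9% and 16.1%) did overlap.

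**Figure D4:**
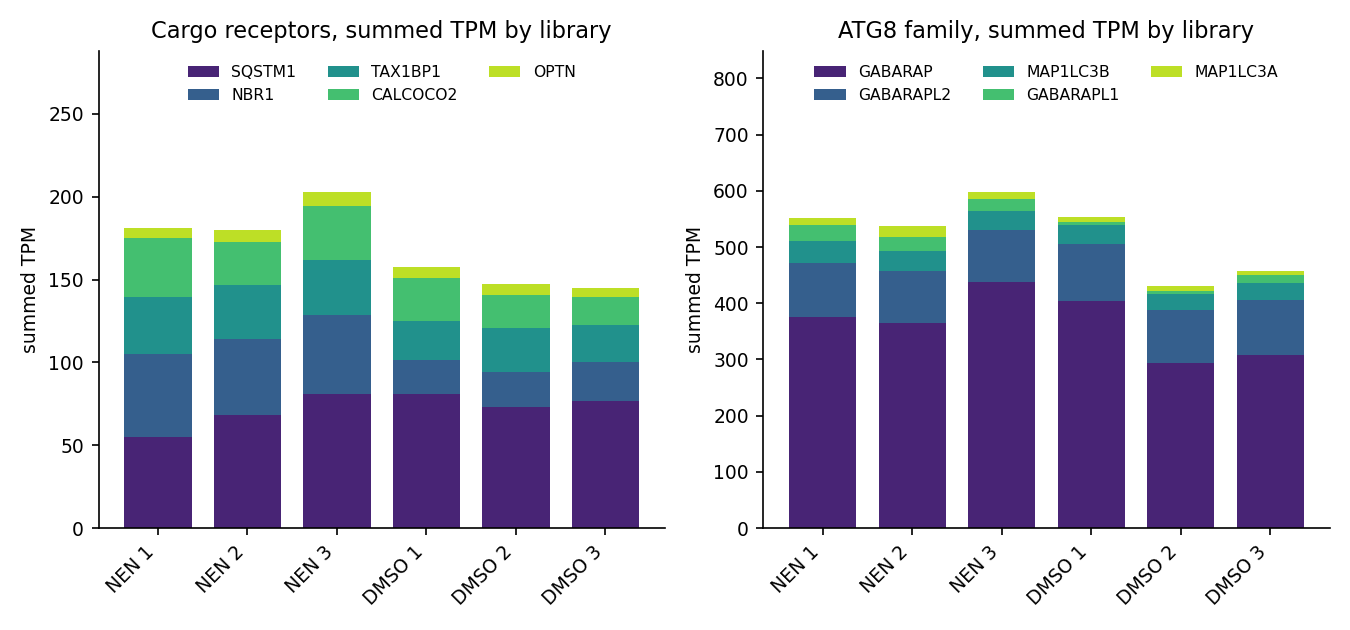
Summed TPM of the 5 cargo receptors (left) and of the 5 ATG8 genes (right) in each library, stacked by gene, with NEN libraries left of DMSO libraries. The NBR1 layer is 46.1 to 50.1 TPM thick in NEN and 20.9 to 23.4 TPM in DMSO libraries, and GABARAP makes up most of the ATG8 stack in all 6.

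Of the 3 mitophagy genes, PINK1 rose, FUNDC1 did not pass the test and PARK2 was too low to be tested. PINK1 had 20.5, 18.5 and 18.1 TPM in NEN libraries, against 13.7, 12.9 and 14 TPM in DMSO libraries. The groups did not overlap, and the rise was 0.46 ± 0.09 (adjusted p = 0.0107). Exons of PINK1 overlap those of the antisense gene PINK1-AS by up to 1078 bases in GENCODE release 29, and since no strand setting is stated, reads of the 2 cannot be told apart. PARK2 was near the floor, with 0.289, 1.11 and 1.07 TPM in NEN libraries, against 0.491, 0.210 and 0.566 TPM in DMSO libraries, and was not tested because its mean was 0.623 TPM. FUNDC1, a receptor on the outer mitochondrial membrane that acts without parkin, had 40.6, 32.2 and 31.5 TPM in NEN libraries, against 46.1, 38.5 and 43.6 TPM in DMSO libraries (-0.29 ± 0.12, adjusted p = 0.102). NEN replicate 1 was its highest NEN library, and without it FUNDC1 was called as a fall (-0.41, adjusted p = 0.0363), while after length and GC correction its difference was -0.11 (adjusted p = 0.536). EPG5, which tethers autophagosomes to late endosomes and lysosomes, had 4.19, 2.29 and 3.95 TPM in NEN libraries, against 2.50, 2.61 and 2.61 TPM in DMSO libraries, with overlap (adjusted p = 0.332).

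Genes of the pathway outside the 44 were read from a further list of 52 symbols, of which 51 were found and 49 tested. Of these 10 rose and 8 fell, 20.4% and 16.3% of those tested, where 13.5% and 16.5% of all genes did. Without NEN replicate 1, NEN replicate 3 or DMSO replicate 3 the count that rose was 6, and 3 to 5 fell without any single NEN replicate or DMSO replicate 2. Of 11 tested mitophagy genes, 4 rose and 3 fell (36.4% and 27.3%, where 13.5% and 16.5% of all genes did). NIPSNAP1, a mitochondrial protein that recruits autophagy receptors to damaged mitochondria, averaged 227.8 ± 1.2 TPM in NEN cells and 135.0 ± 0.5 TPM in DMSO cells (0.75 ± 0.04, adjusted p = 0.000234). BNIP3L, a mitophagy receptor also called NIX, averaged 32.5 ± 4.0 and 21.4 ± 1.0 TPM in NEN and DMSO cells (0.58 ± 0.11, adjusted p = 0.00716). FKBP8, an outer-membrane protein that binds LC3A, averaged 183.8 ± 4.7 and 134.8 ± 9.2 TPM (0.45 ± 0.06, adjusted p = 0.00291), and its difference was 0.16 after length and GC correction. MUL1, a ubiquitin ligase of the outer mitochondrial membrane, fell, with 15.2 ± 0.4 TPM in NEN cells and 21.4 ± 2.8 TPM in DMSO cells (-0.46 ± 0.11, adjusted p = 0.0193), a call lost without NEN replicate 1 (-0.44), 2 (-0.46) or 3 (-0.47). Of the 10 receptors for autophagy of the endoplasmic reticulum, 1 rose and 1 fell (10.0% each, below the shares of all genes). The fall was that of FAM134B (-0.61 ± 0.11, adjusted p = 0.00701), with 9.18 ± 0.77 TPM in NEN cells and 14.6 ± 1.2 TPM in DMSO cells. The rise was that of its relative FAM134A, with 143 ± 2 and 119 ± 7 TPM (0.27 ± 0.06, adjusted p = 0.0142), which was lost without NEN replicate 1 (0.26, adjusted p = 0.0515).

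Of 12 tested genes for fusion with lysosomes, 1 rose and 3 fell (8.33% and 25.0%, where 13.5% and 16.5% of all genes tested did). YKT6, a SNARE protein of autophagosomes, averaged 82.2 ± 7.8 TPM in NEN cells and 111.8 ± 0.4 TPM in DMSO cells (-0.44 ± 0.08, adjusted p = 0.00567), and VPS18, a subunit of the HOPS tether, 8.26 ± 0.94 and 12.8 ± 1.1 TPM (-0.58 ± 0.12, adjusted p = 0.0127). The GTPase RAB7A fell (-0.20 ± 0.05, adjusted p = 0.0277), with 159 ± 1 TPM in NEN cells and 182 ± 8 TPM in DMSO cells, and VPS11, another HOPS subunit, rose (0.32 ± 0.09, adjusted p = 0.0344), with 13.6 ± 0.3 and 10.7 ± 0.1 TPM. Among 8 other initiation and PI3-kinase factors, 1 rose and 1 fell (12.5% each). BCL2, which binds BECN1, rose (0.48 ± 0.13, adjusted p = 0.0282) and PRKAA1, a catalytic subunit of AMPK, fell (-0.57 ± 0.17, adjusted p = 0.0400). BCL2 averaged 15.7 ± 0.7 TPM in NEN cells and 11.04 ± 1.8 TPM in DMSO cells, and PRKAA1 25.2 ± 5.6 and 37.6 ± 5.3 TPM. The calls of RAB7A, VPS11, BCL2 and PRKAA1 were each lost with at least 4 of the 6 libraries when these were left out one at a time, and NEN replicates 2 and 3 and DMSO replicate 2 were among these for all 4 genes. With no filter VPS11 (adjusted p = 0.0505), BCL2 (0.0567) and PRKAA1 (0.0900) also lost their calls. RAB7A lost it with plain limma settings (adjusted p = 0.0887), median-ratio scaling (0.0550), quantile normalization (0.0587) and length and GC correction (0.0702), and PRKAA1 with plain settings (0.0669) and length and GC correction (0.0670). Of 8 tested transcription factors linked to autophagy genes, 3 rose (37.5%, where 13.5% of all genes tested rose and 30.0% were called). TFE3 averaged 23.5 ± 1.5 TPM in NEN cells and 16.6 ± 0.7 TPM in DMSO cells (0.48 ± 0.09, adjusted p = 0.00770). TFEB, a relative of TFE3, averaged 6.37 ± 1.29 and 4.60 ± 0.85 TPM (adjusted p = 0.153), and ATF4 371.5 ± 7.3 and 345.8 ± 7.8 TPM (adjusted p = 0.138), while DDIT3, a stress factor that acts with ATF4, stood at 71.6 TPM in NEN cells and 21.6 TPM in DMSO cells on average (adjusted p = 0.000332).

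Ordered by level, GABARAP (mean over the 6 libraries 364 TPM), ATG4B (125 TPM), ATG9A (110 TPM) and GABARAPL2 (95.7 TPM) were the most abundant of the 44, and ULK2, TP53INP1, EPG5 and PARK2 the least, at 4.04, 3.09, 3.02 and 0.623 TPM. Apart from ATG9A, the called genes lay between place 13 (NBR1) and place 39 (PIK3C3) of that order, with means over the 6 libraries of 34.9 and 5.67 TPM. NBR1, at 47.9 TPM in NEN cells, exceeded TAX1BP1 (33.4 TPM) and CALCOCO2 (31.4 TPM) there, while in DMSO cells it stood at 21.9 TPM between TAX1BP1 (24.1 TPM) and CALCOCO2 (20.8 TPM), 3 neighbours whose libraries overlap.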

How the data were processed

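RNA-seq values of 6 libraries of SK-N-BE(2) cells were used, 3 treated with NEN and 3 with DMSO, grouped by the treatment in the labels. The authors deposited gene levels in TPM, with a file for each library. Kallisto and the build hg19 are named, per the submitters' processing notes, while versions, the strand setting and the step from transcripts to genes are not stated in the labels. Both polyA capture and depletion of rRNA appear in the library protocol. TPM hold no depth.

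Genes averaging 1 TPM or more were fitted as log2(TPM + 1) with limma 3.58.1 (R 4.3.3, trend and robust settings), two-sided, with Benjamini-Hochberg adjustment over 12576 genes and a threshold of 0.05. The code was tested on simulated data. Pools and shares of genes are descriptions, since 3 against 3 libraries cannot give an exact permutation p under 0.1. Pools and ratios other than the ATG8 pool were chosen after values were seen.

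The 44 genes and all lists were chosen with earlier results of these data known. Named are the called genes, ULK1, BECN1, GABARAPL1, MAP1LC3B, SQSTM1, PINK1, PARK2, each step's highest gene and, for each further list, up to 4 called genes with the smallest adjusted p. The remaining genes were named after their values were seen. A gene that this rule names among the transcription factors is not reported here. Same-numbered replicates did not deviate together over all genes tested. RefSeq promoters (GRCh38.p14) and GENCODE release 29 exons supplied sequence and overlaps, and the bases after the start matched a transcript on the gene's strand in 33 of 36 promoters. Plots used matplotlib 3.10.9 (Python 3.11.15).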

Additional observations from a re-analysis of the deposited data

How the results depend on the processing

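Of the 14 called autophagy genes, 8 kept the call in limma in all 15 alternatives run (ATG9A, NBR1, TAX1BP1, ATG16L1, GABARAPL1, PINK1, WIPI1 and PIK3C3), 6 lost it in at least 1, and none changed sign. The 8 uncalled genes recomputed kept their sign, and 4 passed in at least 1 alternative. Of 15 further pathway genes recomputed, 8 kept the call throughout. The length and GC correction (loess, span 0.3, degree 1, 11741 genes) was chosen after seeing the data. The count of autophagy genes that fell was 1 with the replicate block and with no filter, 1 to 2 without single libraries and 3 after length and GC correction, against 2, and that of genes that rose was 8 to 13 over all alternatives. Of all genes, 1063 to 1554 rose without single libraries, against 1699, the lowest without NEN replicate 1. Of the further pathway genes, 6 rose with no filter 6 to 9 without single libraries, 7 with the replicate block and 13 after quantile normalization, against 10. There 4 fell with the replicate block, 5 with no filter, 4 with plain limma settings and 3 to 8 without single libraries, against 8. The NEN minus DMSO difference of the GABARAP share of the ATG8 sum, 0.226 percentage points, lay between -1.55 and 2.01 without single libraries, and that of the MAP1LC3B share, -0.131, between -0.376 and 0.154. The cause of these shifts was not tested. Deviations of same-numbered NEN and DMSO libraries correlated at 0.012, -0.0080 and -0.028 over all genes tested, so no pairing by number was seen. These values cannot exclude a pairing that touches only some genes. With the replicate block in limma, ULK1 (adjusted p = 0.0932), UVRAG (0.0523) and ATG2B (0.0548) lost their calls. Of the further genes, BCL2 (0.0543), PRKAA1 (0.0874), RAB7A (0.0564) and VPS11 (0.0857) lost theirs. Unknown depth limits all low genes, PARK2 above all.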
